A study of Clytia hemisphaerica and Astroides calycularis and Pocillopora acuta with 17 samples.

Results

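Enzyme genes thought to process neuropeptides in coral larvae, 3 in number, are described here out of the 48253 features of the coral matrices, and of the 67014 features of the 3 species that the series covers. They were taken by their identifiers: STRG.18268, a carboxypeptidase gene of the orange coral Astroides calycularis; XP_027051936.1, its ortholog in the cauliflower coral Pocillopora acuta; and XP_027047088.1, a Pocillopora gene named PCSK5-like after the mammalian proprotein convertase subtilisin/kexin type 5. The study annotated both carboxypeptidases with a zinc carboxypeptidase domain and a carboxypeptidase activation peptide, the arrangement known from the A and B type carboxypeptidases of mammals, which are made as inactive zymogens. For XP_027047088.1 it lists cysteine-rich furin-like repeats and no subtilase domain, so that the catalytic domain of a convertase is not part of its annotation, and cleavage of a precursor by its product was not measured. A gene with both a subtilase domain and the P-domain of convertases exists in each coral (STRG.17272 in Astroides, XP_027040049.1 in Pocillopora) and is described with the other peptidases. Protein and promoter sequences of these genes were not used here.

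Neuropeptides are made as long precursor proteins that have to be cut before they act. Proprotein convertases cut the precursor after pairs of basic residues, carboxypeptidases trim the basic residues left at the new C-terminal ends, and amidating enzymes then turn a terminal glycine into the amide that ends peptides such as GLWamide, RFamide and HFRIamide. In cnidarians GLWamides are best known for setting off settlement and metamorphosis of the larva.

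Planula larvae, the swimming stage, were dissociated, their cells were fixed in the methanol-based ACME solution, and the cells were put through 10x Genomics single-cell RNA sequencing. No treatment is given for either coral. Astroides larvae had been released by colonies from the wild and Pocillopora larvae, which carry symbiotic algae, by aquarium colonies. Astroides has an unsorted sample (1 matrix) and a sample sorted by flow cytometry on a DNA dye, which was meant to discard debris and doublets (2 matrices, here run 1 and run 2), and Pocillopora has the samples C3 (1 matrix) and C6 (2 matrices, replicates 1 and 2). The study's methods give C3 and C6 as parent colonies of 1 genotype whose larvae were collected in December and in February, so that colony and season cannot be told apart, and the labels give no age. There is thus 1 biological sample per condition, and differences between sorted and unsorted cells or between C3 and C6 have no test.

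Values are counts of unique molecular identifiers (UMIs), each standing for 1 captured transcript. After the study's limits on UMIs, genes and mitochondrial share, 3869 unsorted Astroides cells, 6682 cells of run 1 and 9382 of run 2 remained, with 4809 Pocillopora cells of C3 and 2517 and 2408 of the C6 replicates. The median cell held between 745.5 and 1041 UMIs. Between 3 and 21 cell barcodes were shared by any 2 matrices of a species. Levels are the UMIs of a gene per 1000000 UMIs of the cells in question (CPM), with 95% exact Poisson intervals, and shares of cells with 95% exact binomial intervals; both cover counting error only, since cells of 1 sample are not replicates. Where no UMI was found, the limit given is that of 3 counts and not a binomial bound; for shares it limits cells with a captured UMI, not cells that express the gene.

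In whole larvae all 3 genes were rare. A UMI of the Astroides carboxypeptidase STRG.18268 was found in 48 of the 3869 unsorted cells (1.24%), in 78 cells of run 1 and in 110 cells of run 2. Its level was 27.4 CPM (22.9 to 32.7) in unsorted cells, 15.97 in run 1 and 19.3 in run 2. The unsorted level was the highest of the 3 matrices, beside 17.95 CPM (16.2 to 19.8, 405 UMIs) in the sorted sample as a whole. The intervals of the share of cells with a UMI overlapped, at 0.916 to 1.64% in unsorted and 1.01 to 1.35% in sorted cells. After thinning to 500 UMIs, which leaves out cells with fewer, a UMI remained in 0.847% of 3069 unsorted and 0.661% of 13321 sorted cells.

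The Pocillopora ortholog XP_027051936.1 lay at a similar level in its 3 matrices. It measured 15.1 CPM in C3 (88 UMIs in 58 cells), 12.6 in C6 replicate 1 (37 UMIs in 31 cells) and 16.8 in C6 replicate 2 (44 UMIs in 31 cells). The C3 value fell between the 2 C6 replicates. The PCSK5-like gene XP_027047088.1 was held by about as few cells but at many more UMIs. It measured 79.5 CPM in C3 (72.5 to 87.1, 464 UMIs in 46 cells), 146 in C6 replicate 1 (429 UMIs in 28 cells) and 130 in C6 replicate 2 (340 UMIs in 32 cells). Both C6 replicates lay above C3, and C6 as a whole was at 139 CPM (129 to 149). The share of cells with a UMI was 0.957% in C3 (0.701 to 1.27) and 1.22% in C6 (0.931 to 1.565), with intervals that overlap. The Poisson intervals take UMIs as independent, whereas 1 cell of C6 replicate 1 held 83 of its 429 UMIs.

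Cells were clustered for each species with the members kept out of the genes that shaped the clusters, and clusters were named from the marker lists of the study. The group called GLWamide-like, after the cells that the study names by their GLWamide precursor, had 222 cells in Astroides, where 8 of 8 GLWamide-like markers and 2 of 5 neural-like markers were raised, and 198 cells in Pocillopora, where 7 of 8 and 4 of 5 were. The study listed these enzyme genes as features of its GLWamide cells from the same data, so levels in the GLWamide-like group are a description and were not tested.

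STRG.18268 was concentrated in that group. It measured 1250 CPM in unsorted (995 to 1549), 741 in run 1 and 952 in run 2 GLWamide-like cells, against 9.76 CPM in all other unsorted cells and 5.32 in all other sorted cells. The ratio was 128 in the unsorted and 163 in the sorted sample. The 222 cells held 371 of its UMIs, 69.7% of the total, and 132 of them (59.5%) had at least 1. The gene is not abundant even there: the median positive cell had 2 UMIs, 57 of the 132 had only 1, and the highest had 13. Of all genes tested in Astroides, 1.63% were over 4 times higher in GLWamide-like cells in both samples, a value that carries no weight for a gene chosen for this pattern.

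XP_027047088.1 was the strongest of the 3 in GLWamide-like cells. The level was 3350 CPM in C3 (3018 to 3708), 4528 in C6 replicate 1 and 3468 in C6 replicate 2, against 16.1 CPM in other cells of C3 and 20.4 in those of C6. The group held 80.2%, 90.7% and 79.4% of the gene's UMIs in the 3 matrices. Only 58 of the 198 cells (29.3%) had the transcript, but the median positive cell had 13 UMIs and the highest 83. The corresponding background in Pocillopora, genes over 4 times higher in both samples, was 3.31%.

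XP_027051936.1 was spread differently from its Astroides ortholog. GLWamide-like cells held 34 of its UMIs in 22 cells (11.1%), which is 20.1% of the total, at 198 CPM in C3 (124 to 300) and 73.3 CPM in C6 (37.9 to 128). The ratio to other cells was 17.2 in C3 and 5.72 in C6. The value rests in part on C3, without which the level of the group fell from 124 to 73.3 CPM. The largest share of its UMIs (42.6%) lay in the neurosecretory-2-like group and a further 33.7% in a cluster without a name.

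**Figure D1:**
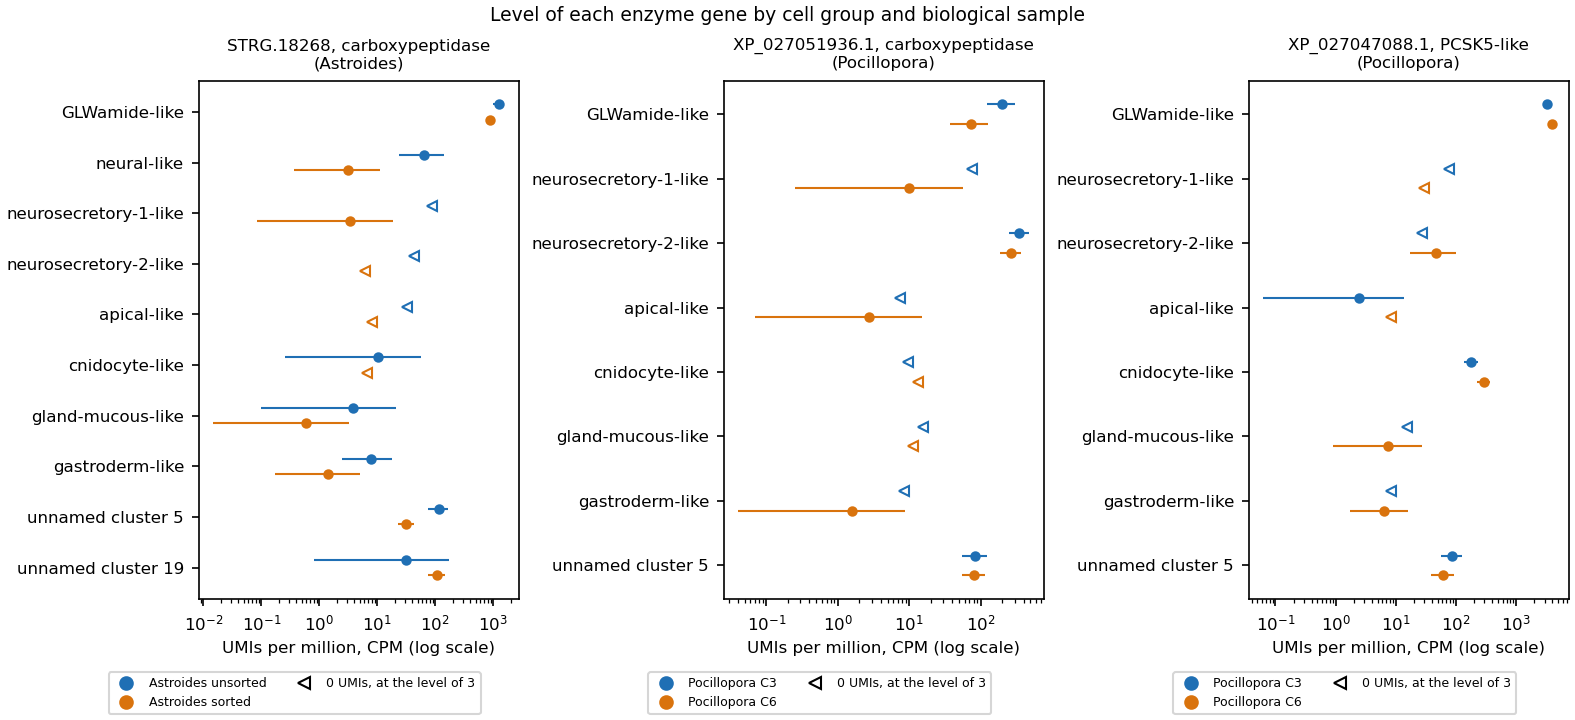
Level of each enzyme gene (CPM, log axis) in the named cell groups and the unnamed clusters that hold it, with a point for each biological sample, bars for 95% exact Poisson intervals and open triangles at the level of 3 UMIs where no UMI was found. STRG.18268 and XP_027047088.1 peak in GLWamide-like cells, whereas XP_027051936.1 peaks in neurosecretory-2-like cells at 350 CPM in C3 and 268 CPM in C6.

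**Figure D2:**
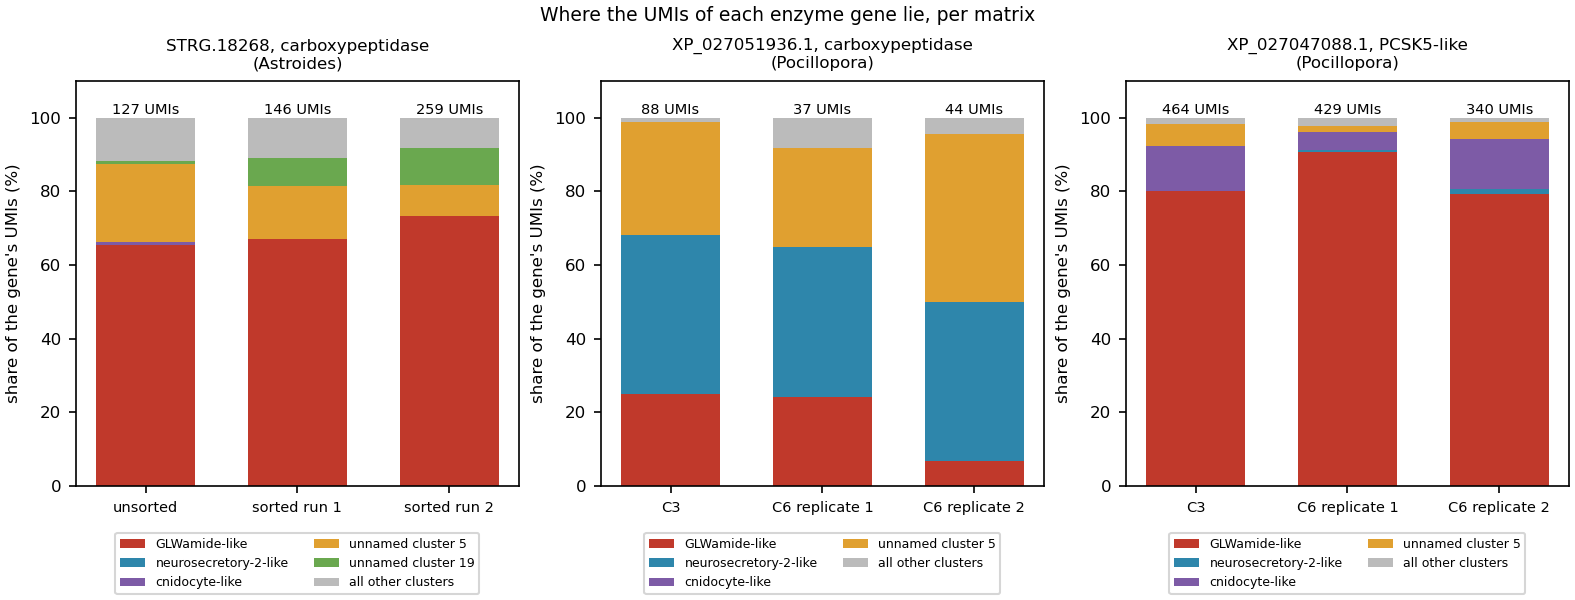
Share of each gene's UMIs (%) by cell group in each of the 3 matrices per species, with the number of UMIs above each bar. GLWamide-like cells take 79.4 to 90.7% of XP_027047088.1 UMIs in every matrix, but only 6.82 to 25% of those of XP_027051936.1.

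Within the GLWamide-like group the enzyme transcripts were not limited to cells with GLWamide precursor. In both corals a second transcript was as prominent in the group, a short protein with a transmembrane domain that the study lists as specific to scleractinian corals (Short-tm; STRG.18164 in Astroides, XP_027053553.1 in Pocillopora). Cells were therefore split, after their values had been seen, by the transcript that had at least 5 UMIs and over 2 times the other. In Pocillopora 20 cells of the group were dominated by the GLWamide precursor, 36 by Short-tm and 142 by neither, of which 37 carried the precursor of another amidated peptide, GVWamide.

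PCSK5-like transcript was at home in both of these Pocillopora classes. It was found in 19 of the 20 GLWamide cells (95.0%) at 10790 CPM. In Short-tm cells it was found in 34 of 36 (94.4%) at 13320 CPM, with a median of 18.5 UMIs, and these 36 cells had no GLWamide UMI at all. In the 142 remaining cells it was found in 5 (3.52%) at 56.7 CPM. So of the 58 PCSK5-like cells in the group, 39 had no GLWamide UMI; these were 15 of 21 in C3, 9 of 15 in C6 replicate 1 and 15 of 22 in C6 replicate 2, a majority in each matrix. Only 1 cell had at least 5 UMIs of both leading transcripts.

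XP_027051936.1 was likewise held by both classes, at its lower level. It was found in 4 of the 20 GLWamide cells (20%, 389 CPM), in 13 of the 36 Short-tm cells (36.1%, 311 CPM) and in 5 of the 142 others (3.52%, 36.1 CPM). The counts are too small to order the first 2 classes. A UMI of both Pocillopora enzyme genes was found in 16 cells, out of 120 with the carboxypeptidase and 106 with the PCSK5-like gene, and none of the 16 lay outside the GLWamide-like group.

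In Astroides the carboxypeptidase leaned to the GLWamide class. STRG.18268 was found in 81 of 97 GLWamide cells (83.5%), at 2337 CPM in unsorted and 1942 CPM in sorted cells. Among 106 Short-tm cells it was found in 47 (44.3%), at 442 and 357 CPM. The level was higher in GLWamide cells in both samples, although their median depth was the lower of the 2 classes (1082 against 1724 UMIs). Of the 132 positive cells 45 had no GLWamide UMI, namely 10 of 28 in the unsorted matrix, 14 of 40 in run 1 and 21 of 64 in run 2, so that GLWamide-positive cells were the majority in each. At least 5 UMIs of both leading transcripts were present in 18 Astroides cells.

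**Figure D3:**
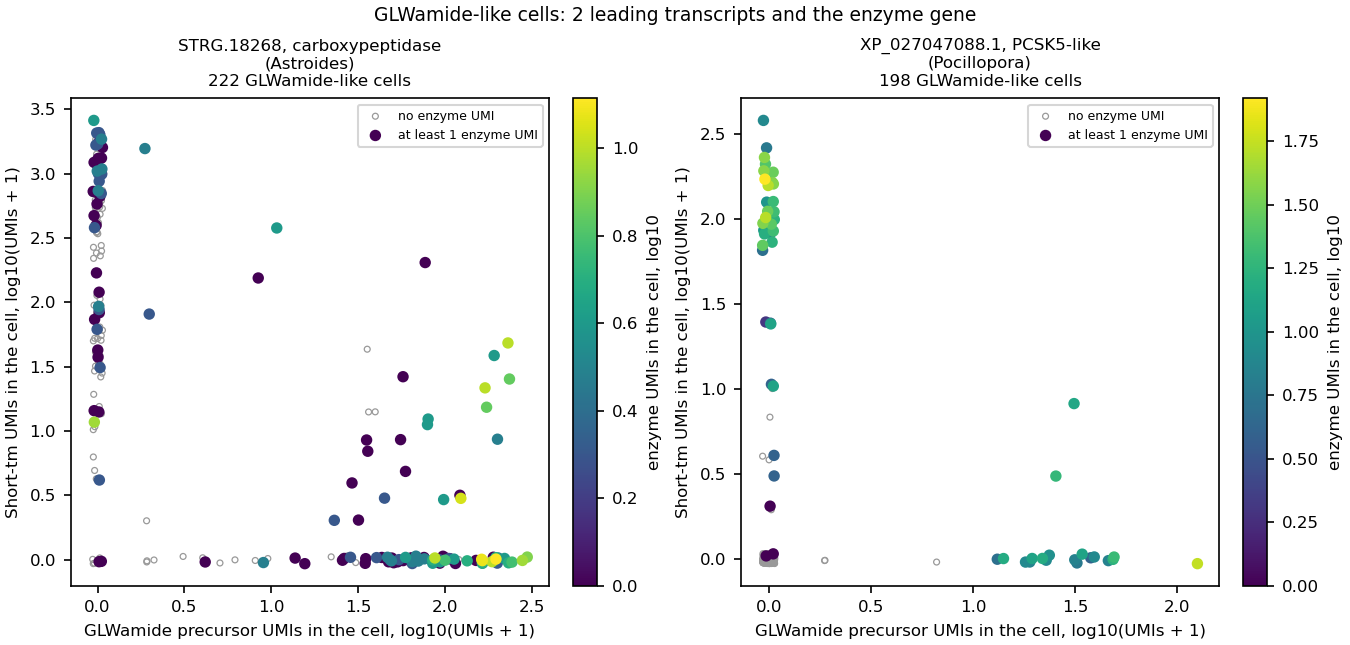
Each point is a GLWamide-like cell, placed by its UMIs of the GLWamide precursor and of Short-tm (both as log10(UMIs + 1), with a slight random shift) and coloured by its UMIs of STRG.18268 (222 Astroides cells) or XP_027047088.1 (198 Pocillopora cells); open points have no enzyme UMI. The Pocillopora enzyme lies on both arms with 1 cell at 5 or more UMIs of both transcripts, while the Astroides enzyme is denser on the GLWamide arm.

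Dominance of Short-tm did not by itself mark cells with an enzyme transcript, though cells outside the group also held less Short-tm. Outside the GLWamide-like group 50 Pocillopora cells were also dominated by Short-tm, and PCSK5-like was found in 4 of them (8%, 172 CPM) and the carboxypeptidase in 11 (22.0%). Most of these cells, 38, lay in unnamed cluster 5, with PCSK5-like in 3 and the carboxypeptidase in 8. These 38 also had few of the group's other markers: the homeobox gene EMX-like (XP_027041987.1) was found in 1 of them and the growth factor gene FGF22-like (XP_027051354.1) in 4, compared with 18 and 31 of the 36 Short-tm cells inside the group. Their median depth was 985 UMIs against 1448, and their Short-tm level 38040 CPM against 69790 CPM.

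In Astroides the values lay in the same order. Of 64 Short-tm cells outside the group 9 had STRG.18268 (14.1%, 79.7 CPM), with EMX-like (STRG.15918) in 3.13% and FGF22-like (STRG.11113) in 7.81%, against 53.8% and 43.4% of the Short-tm cells inside. The 64 outside cells held far less Short-tm, at 17950 CPM against 246100 CPM inside, and were shallower (median 1215.5 against 1724 UMIs). They were scattered over named groups and unnamed clusters, so they are no matched counterpart of the cells inside. Cells dominated by GLWamide precursor but clustered elsewhere numbered 18, and 9 of them had the carboxypeptidase. Because EMX-like and FGF22-like helped to form the clusters, their difference between inside and outside is a description. A neurotransmitter-gated ion channel (STRG.14660), chosen after its values were seen, marked the Short-tm side: it was found in 89.6% of Short-tm and 5.16% of GLWamide cells of the group.

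**Figure D4:**
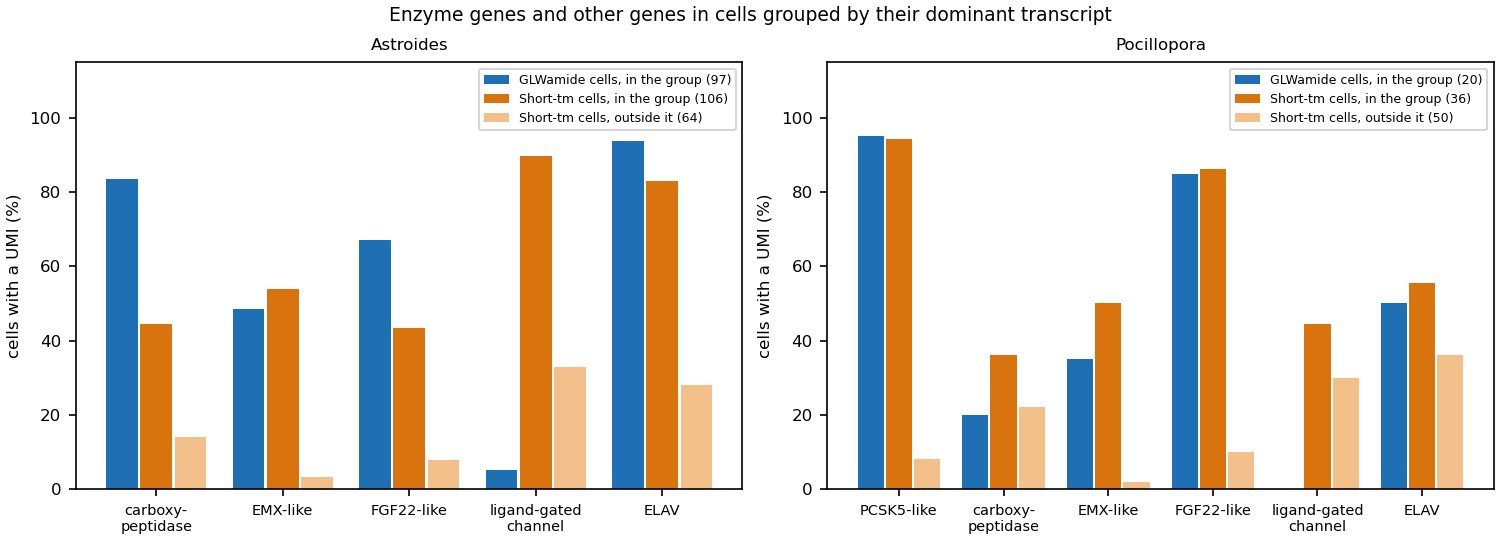
Share of cells with a UMI (%) of the enzyme genes and of 4 other genes in cells dominated by the GLWamide precursor or by Short-tm inside the GLWamide-like group, and by Short-tm outside it, with cell numbers in the key. PCSK5-like is in 95.0%, 94.4% and 8% of the 3 Pocillopora classes, and the Astroides carboxypeptidase in 83.5%, 44.3% and 14.1%.

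Which neuropeptides go with the enzymes was asked without any clustering, by the dominant of 5 precursors in a cell (at least 5 UMIs and over 2 times every other). STRG.18268 was found in 92 of 118 GLWamide cells (78.0%, 69.4 to 85.1). By matrix this was 20 of 28 unsorted, 27 of 29 in run 1 and 45 of 61 in run 2. UMIs of the gene were found in few cells with another precursor: in 0 of 24 GVWamide cells, which allows a UMI in up to 12.5%, in 3 of 229 RFamide cells (1.31%), in 0 of 69 HFRIamide cells (up to 4.35%) and in 9 of 229 Damicornin cells (3.93%). Cells without a dominant precursor had it in 0.685%. After thinning to 500 UMIs the share in GLWamide cells was 53.4%.

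XP_027047088.1 was likewise most frequent with GLWamide. It was found in 20 of 22 GLWamide cells (90.9%, 70.8 to 98.9), namely 6 of 7 in C3 and 14 of 15 in C6. Of 36 GVWamide cells 3 had it (8.33%), and of 94 RFamide cells none, which allows a UMI in up to 3.19%. XP_027051936.1 was less often found in the same 22 GLWamide cells, in 3 of 7 in C3 and 1 of 15 in C6, with 0 of 36 in GVWamide and 0 of 94 in RFamide cells. Damicornin and HFRIamide were dominant in only 3 and 5 Pocillopora cells.

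**Figure D5:**
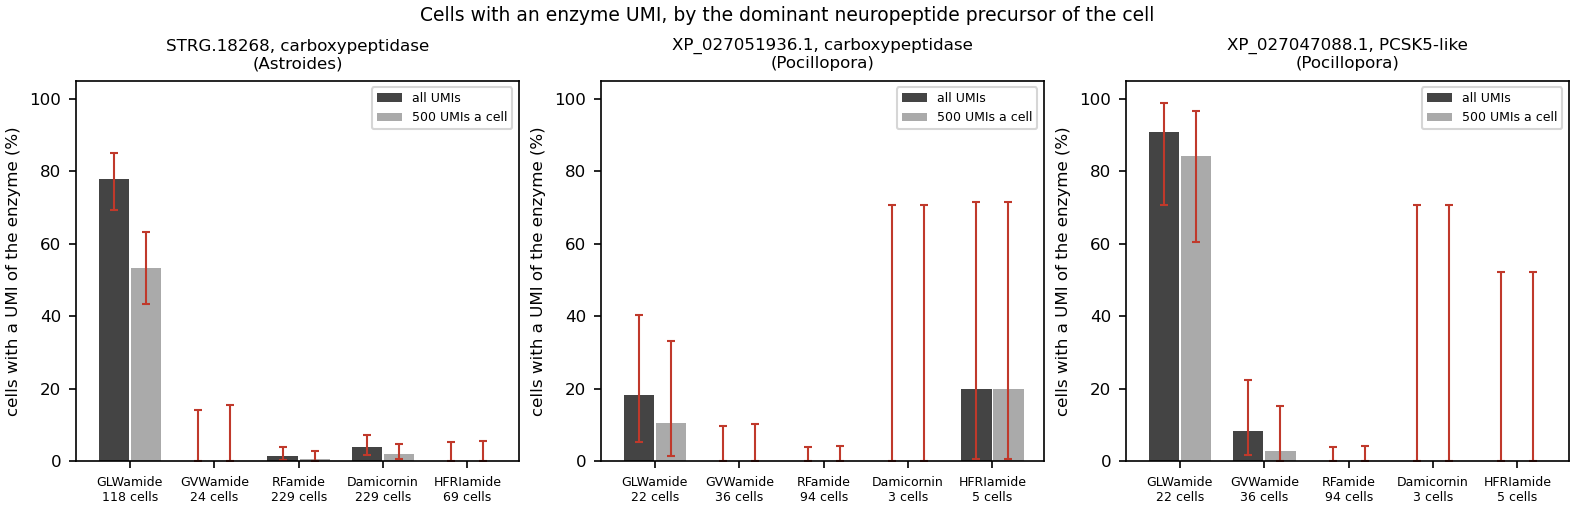
Share of cells with a UMI of each enzyme gene (%), by the dominant neuropeptide precursor of the cell, with all UMIs (dark) and after thinning to 500 UMIs a cell (light); bars are 95% exact binomial intervals and cell numbers stand under the axis. STRG.18268 and XP_027047088.1 reach 78.0% and 90.9% of GLWamide cells, and the intervals are wide where a class has few cells.

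The study listed these genes for its GLWamide cells, and where else they are held was tested. The genes were chosen with earlier results of these data known, so the tests are not independent of that choice. UMIs were summed per biological sample for each named group and for all other cells, with GLWamide-like cells left out of both, and compared with edgeR's quasi-likelihood test; calls needed a log2 fold change beyond 1 together with a Benjamini-Hochberg adjusted p below 0.05. The gastroderm-like group is given for comparison. A UMI was found in 0.31% of its Astroides cells for STRG.18268 (median depth 883 UMIs), and in 0.13% and 0.39% of its Pocillopora cells for XP_027051936.1 and XP_027047088.1 (833.5 UMIs). Whether these UMIs come from free transcripts in the droplets was not tested. Of the 5 positive Astroides cells 4 had a neural-like marker (80%), against 15.7% of the other cells of the group. These 5 cells were the deeper (median 1753 against 881 UMIs) and had 7 neural-like marker UMIs in total. GLWamide-like cells had median depths of 1386 and 1203 UMIs.

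XP_027051936.1 was higher in the neurosecretory-2-like group, a member of the secretory groups of the larva. The transcript measured 350 CPM in C3 (247 to 480), 202 in C6 replicate 1 and 360 in C6 replicate 2, against 4.99 and 6.65 CPM in the other cells of C3 and C6. The log2 fold change was 5.68 (edgeR's quasi-likelihood test, adjusted p = 5.09e-53), in a comparison in which 2.88% of all genes were called higher. It was found in 53 of the 252 cells (21.0%; 14.8% after thinning). All 53 carried neurosecretory-2-like markers, as did 188 of the other 199, and 1 carried a GLWamide-like marker. No other of the 6 named groups was called higher (4.99% of all gene and group pairs were), and apical-like, gastroderm-like and gland-mucous-like cells were called lower, with at most 1 UMI in each sample. In those comparisons 15.9%, 14.6% and 5.5% of all genes were called lower. The apical-like call was lost at resolution 1.5 of the clustering (adjusted p = 0.457 in edgeR's quasi-likelihood test), the gland-mucous-like call without the replicate block (adjusted p = 0.113 in the same test) and the gastroderm-like call in DESeq2 (adjusted p = 0.284).

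The neurosecretory-2-like cells of Astroides did not show the ortholog. STRG.18268 had 0 UMIs in their 469 cells, which allows up to 5.36 CPM and a UMI in up to 0.64% of cells. The group joins cluster 17 (357 cells, 3 of 6 neurosecretory-2-like markers raised) and cluster 28 (112 cells, 6 of 6). For cluster 28 alone, the closer match to the type, both limits are wider. Whether the species differ in holding the gene in this cell type was not tested, since the 2 corals were mapped to different gene models.

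STRG.18268 was called higher in 0 of the 7 named groups of Astroides, where 5.95% of all gene and group pairs were called higher. At an unadjusted p under 0.05 in edgeR's quasi-likelihood test it was lower in 2 of them and higher in none. In DESeq2's Wald test it was lower in 0 and higher in 0 at that unadjusted p. DESeq2 gave no adjusted p in groups such as apical-like and cnidocyte-like cells, so no call could be made there. In neural-like cells, a group that holds other neuropeptide precursors, it measured 64.4 CPM in the unsorted sample, all 6 UMIs in 1 cell, and 3.08 CPM in the sorted sample (log2 fold change 0.80, edgeR's quasi-likelihood test, adjusted p = 0.572; background 6.54%). In gland-mucous-like cells it was called lower, at 3.835 and 0.58 CPM against 10.1 and 5.72 CPM elsewhere (log2 fold change -2.31, edgeR's quasi-likelihood test, adjusted p = 0.0448; 9.59% of genes were called lower). That call was not made in DESeq2 or in 5 of the other edgeR alternatives, with an adjusted p of 0.259 without the replicate block, and the log2 fold change was -0.70 when no cluster was removed. It had 0 UMIs in apical-like cells.

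Outside the named groups, 2 of 20 unnamed Astroides clusters were called for STRG.18268 in a comparison added after the data had been seen, in which 3.99% of all gene and cluster pairs were called. Cluster 5 (1097 cells) had 70 UMIs in 38 cells, at 114 CPM in unsorted, 38.05 in run 1 and 27.2 in run 2 (log2 fold change 3.64, edgeR's quasi-likelihood test, adjusted p = 1.61e-22, against 10.3% of genes called higher there). Of the neural-like list 1 of 5 markers was raised in it and none of the 5 precursors was called higher, 3 being called lower, while ELAV and AshA were called higher. A neural-like marker was found in 33 of the 38 positive cells (86.8%) and in 72.0% of the others, the positive cells being the deeper (median 1317 against 1006 UMIs). Cluster 19 (298 cells) had 38 UMIs in 29 cells, of which 1 UMI came from the unsorted sample (31.6 CPM) and 37 from the sorted one (106 CPM), so that its call (log2 fold change 4.20, edgeR's quasi-likelihood test, adjusted p = 8.42e-12; background 1.56%) rests on the sorted cells. Only 4 of these 29 cells had a neural-like marker.

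Unnamed cluster 5 of Pocillopora (592 cells) was the other place where XP_027051936.1 was held. It measured 83.8 CPM in C3 (55.2 to 122), 52.1 in C6 replicate 1 and 112 in C6 replicate 2, in 39 cells (6.59%). The log2 fold change was 3.30 (edgeR's quasi-likelihood test, adjusted p = 4.32e-09), in a comparison with 9.16% of genes called higher, and this was the only one of 21 unnamed clusters called (4.08% of gene and cluster pairs were). XP_027047088.1 was called in the same cluster and in no other unnamed one (log2 fold change 2.19, edgeR's quasi-likelihood test, adjusted p = 2.41e-06), with 51 UMIs in 10 cells. In cluster 5, 4 of the 5 precursors, all but RFamide, were called higher, as were the neural genes ELAV and AshA. Such a call can rest on very few cells. Of the 2067 HFRIamide UMIs of all kept cells, 1819 lay in 2 of the 38 Short-tm cells of the cluster. Only 1 cell of the cluster was dominated by GLWamide precursor over Short-tm, with 10 UMIs of it.

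For XP_027047088.1 the only named group called was the cnidocyte-like one, the stinging cells. It measured 182 CPM in C3, 206 in C6 replicate 1 and 366 in C6 replicate 2 (log2 fold change 5.49, edgeR's quasi-likelihood test, adjusted p = 4.8e-75; background 7.77%). The 123 UMIs came from 15 of the 198 cells, with a median of 6 UMIs each. None of these 15 cells had a UMI of any of the 3 cnidocyte-like markers, which 82 of the other 183 cells had (44.8%), and none had a UMI of any of the 8 GLWamide-like markers. It was called lower in apical-like and gastroderm-like cells, where it had 1 and 4 UMIs (background 15.9% and 14.6%). Both calls were lost at resolution 1.5 (edgeR's quasi-likelihood test, adjusted p = 0.079 and 0.131) and in DESeq2 (0.229 and 0.325), and the gastroderm-like one also without the replicate block (0.0751). The cnidocyte-like call was not made at a finer resolution of the clustering, where the 15 cells fell into an unnamed cluster, nor at a coarser one, where they joined a GLWamide-like group of 853 cells. Which kind of cell these 15 are is not given by the marker lists.

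The other peptidases annotated by the study were at 0 or few UMIs in GLWamide-like cells. They were taken from its gene tables, which list aboral, oral and cluster-marker genes, the last from these same cells. Their levels and calls by cell group are thus not independent of that listing. In Astroides 4 of 5 had 0 UMIs there and the remaining 1, a metallopeptidase of the M13 family (STRG.43076), had 9 UMIs at 22.6 CPM, against 1.30 CPM elsewhere. In Pocillopora none of 9 had more than 1 UMI in the group. The subtilase genes with a convertase P-domain lay elsewhere. STRG.17272 was called higher in the neural-like cells of Astroides, with 75 UMIs in 41 of 427 cells (log2 fold change 6.76, edgeR's quasi-likelihood test, adjusted p = 4.34e-45), and had 0 UMIs in GLWamide-like cells. XP_027040049.1 was called higher in gland-mucous-like cells (44.0 CPM, adjusted p = 6.2e-07 in edgeR's quasi-likelihood test, background 3.63%) and in cnidocyte-like cells (33.6 CPM, adjusted p = 6.51e-05 in the same test).

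Over the 7 named groups of Astroides 1 of the 5 other peptidases was thus called higher in any group, and 1 or 2 of the 5 had enough UMIs to be tested. Over the 6 of Pocillopora 2 of 9 were, the second being an M13 metallopeptidase (XP_027042738.1) at 360 CPM in neurosecretory-1-like cells (log2 fold change 7.06, edgeR's quasi-likelihood test, adjusted p = 2.59e-38; background 2.57%). Neither was called in the neurosecretory-2-like group, in which 8 of the 9 were tested and the carboxypeptidase XP_027051936.1 was the one raised.

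Taken over all kept cells, which pools the cell groups, cells with an enzyme UMI more often carried transcripts of neural genes. ELAV, an RNA-binding protein gene used as a general neural marker, was found in 178 of the 236 STRG.18268 cells (75.4%) against 16% of other Astroides cells, and in 52 of the 104 positive cells outside the GLWamide-like group (50% against 15.9%). The transcription factor gene AshA was found in 55.5% against 8.61%. In Pocillopora ELAV was found in 33.3% of XP_027051936.1 cells against 9.06% of others and in 41.5% of XP_027047088.1 cells against 9.01%, while AshA was found in 51.7% against 13.8% and in 44.3% against 13.9%. Within the GLWamide-like group neither depth nor neural-like markers went 1 way. For STRG.18268 positive cells had a median of 1418 UMIs and the others 1088.5, with a neural-like marker in 97.7% against 77.8%. For XP_027051936.1 these values were 1805.5 and 1155.5 UMIs, with 86.4% against 84.1%. For XP_027047088.1 they were 1098.5 and 1234 UMIs, with 75.9% against 87.9%. The part of depth in the shares was not tested.

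The genes most alike in their pattern over clusters were named by Pearson's r of log2(CPM + 10), taken in each biological sample and ranked by the lower of the 2 values. Points are clusters of the same libraries, so r is a description only. For STRG.18268 and XP_027047088.1 the GLWamide-like cluster had the highest level of all clusters in both samples, so r depends strongly on it. XP_027051936.1 had no UMI in either sample in most clusters. Its r depends strongly on the neurosecretory-2-like cluster, unnamed cluster 5 and the GLWamide-like cluster, where its level was highest. For STRG.18268, over 29 clusters, these were EMX-like STRG.15918 (r = 0.84 in unsorted and 0.83 in sorted cells), STRG.10744 with no annotation (0.79 and 0.78), the GLWamide precursor STRG.15971 (0.75 and 0.78), a glycosyl hydrolase with similarity to beta-galactosidase, STRG.41853 (0.73 and 0.76), and a tubulin, STRG.38993 (0.75 and 0.72).

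For XP_027047088.1, over 28 clusters, EMX-like XP_027041987.1 was again among the 5 (0.84 in C3 and 0.82 in C6), beside XP_027053519.1 (0.87 and 0.90), XP_027053791.1 (0.88 and 0.86), XP_027052512.1 (0.83 and 0.85) and XP_027045933.1 (0.83 and 0.90), which have no annotation in the study's tables. EMX-like, which encodes a homeobox transcription factor, was thus on the list of the Astroides carboxypeptidase and on that of the Pocillopora convertase-like gene. It is also among the markers that named the GLWamide-like cluster of each coral, so its place on both lists is no independent support. In Astroides the GLWamide precursor and the tubulin STRG.38993 are such markers too. The list of XP_027051936.1 held neither EMX-like nor the GLWamide precursor, whose r was 0.65 in C3 and 0.50 in C6. It held a voltage-gated potassium channel gene, XP_027036332.1 (0.74 and 0.83), a glutamate receptor gene similar to GRIK2, XP_027046766.1 (0.79 and 0.73), and the unannotated XP_027039494.1 (0.91 and 0.90), XP_027042215.1 (0.80 and 0.85) and XP_027059209.1 (0.82 and 0.77).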

How the data were processed

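The deposited matrices hold raw UMI counts per gene and cell barcode. Per the labels and the study's methods, the authors made these counts with STARsolo (version not given in the sources used here), called cells with its EmptyDrops filter at a minimum of 300 UMIs, and mapped Astroides calycularis to an in-house assembly and Pocillopora acuta to the genome of Pocillopora damicornis. Run 1 holds 2 libraries that were mapped together. How reads of near-identical genes were counted is not given in the sources used here. The Clytia matrices of the series were not used here.

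Cells were kept at 300 to 10000 UMIs, 200 to 3000 genes and at most 0.4% mitochondrial UMIs in Astroides, and at 300 to 20000 UMIs, 200 to 4000 genes and at most 5% in Pocillopora. No doublet caller was run here; the sorted Astroides cells, unlike the others, had been sorted by the authors to discard doublets, and beyond this the upper limits were the only treatment. Cells were clustered with scanpy 1.11.5 and Leiden (leidenalg 0.10.2) at resolutions 0.9 and 1.0, the members being kept out of the variable genes. A cluster of 268 Astroides cells with few markers of its own was removed, following the study; it held 0 UMIs of STRG.18268. A cluster was named where at least 3 markers and 50% of a list were over 4 times higher. Marker lists came from the study's tables, and the members and lists were chosen with earlier results of these data known.

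Sums of UMIs per biological sample were tested with edgeR 4.0.16 (TMM, filterByExpr, quasi-likelihood test, biological sample as a block, Benjamini-Hochberg adjustment over all genes of the comparison) in R 4.3.3. Both sums of a sample come from the same cells' dissociation, which is where the pairing comes from. The scripts were tested on simulated data. Genes named for likeness were the 5 with the highest lower r among genes with at least 50 UMIs; those of fixed lists (precursors, other peptidases, neural genes) were described as groups. Alternatives were other resolutions, no removed cluster, cells taken by their precursor, other UMI minimums, thinning, each matrix left out, other size factors, no filter, no block and DESeq2 1.42.0.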

Additional observations from a re-analysis of the deposited data

Results flagged for a closer look

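Barcodes outside the limits on cells, which entered no comparison, also held enzyme transcripts. In Astroides these barcodes had 11 UMIs of STRG.18268, of which 10 lay in 3 unsorted barcodes and 1 in a sorted one. In Pocillopora they had 17 UMIs of XP_027047088.1, all in 1 barcode of C6 replicate 1. Both lie above the 3 counts that a count of 0 allows.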

How the results depend on the processing

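Where cells were taken by a dominant GLWamide precursor with no clustering, the level was 1640 CPM for STRG.18268 (931 in the named group), 355 for XP_027051936.1 (124) and 9905 for XP_027047088.1 (3751), and the share of UMIs in these cells was 56.2%, 5.33% and 20.4% (69.7%, 20.1% and 83.6%), since Short-tm cells are then left out. At resolution 0.6 the Pocillopora GLWamide-like group was larger: the share of UMIs was 53.8% for XP_027051936.1 and 97.5% for XP_027047088.1, whose level was 1109 CPM; XP_027047088.1 was called in 0 groups there, being under the low-count filter in all 6, and in 0 at resolution 1.5 (1 at the resolution used). Thinning to 500 UMIs gave 53.4% for STRG.18268 and 84.2% for XP_027047088.1 as the share of GLWamide-precursor cells with a UMI (78.0% and 90.9%). With unnamed clusters, added after seeing the data, STRG.18268 was called in 2 (0 among named groups).

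Leaving out each matrix in turn gave 868 to 1026 CPM for STRG.18268 in GLWamide-like cells, 73.3 to 157 for XP_027051936.1 (73.3 without C3) and 3398 to 4024 for XP_027047088.1. Over all kept cells the ranges were 17.95 to 21.4, 14.3 to 15.6 and 95.1 to 138.5 CPM. Without the replicate block the genes were called higher in 0, 1 and 1 named groups, as with it, but 3 lower calls were lost: STRG.18268 (adjusted p = 0.259) and XP_027051936.1 (0.113) in gland-mucous-like and XP_027047088.1 (0.0751) in gastroderm-like cells, in edgeR's quasi-likelihood test. For STRG.18268 in gland-mucous-like cells the adjusted p was 0.0466 to 0.561 over the edgeR alternatives. DESeq2, other size factors and no filter on low counts gave the same 3 counts of higher calls. For STRG.18268 DESeq2 gave no adjusted p in groups such as apical-like and cnidocyte-like cells.

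The limits are those of rare transcripts. With 2 biological samples per species, a test compares groups of cells within the same 2 larval samples. XP_027051936.1 rests on 169 UMIs, and its share in GLWamide cells on 4 of 22 cells. The call in cnidocyte-like cells rests on 15 cells. Sorting cannot be told apart from the sample in Astroides, and the species cannot be told apart from the gene models used for mapping.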

Other observations

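Damicornin, named after an antimicrobial peptide of Pocillopora damicornis, was split between the 2 classes of Astroides GLWamide-like cells that hold STRG.18268. Its transcript (STRG.4391) was found in 50.9% of the 106 Short-tm cells (669 CPM) and in 6.19% of the 97 GLWamide cells (65.5 CPM). The Short-tm cells were the deeper, with a median of 1724 against 1082 UMIs. They held only 160 of the 33212 Damicornin UMIs of all kept Astroides cells, so the transcript is not particular to them. Their level of 669 CPM also lay below that over all kept cells, which had 33212 Damicornin UMIs among 27187919 UMIs. Among cells in which Damicornin was itself the dominant precursor, 9 of 229 had the carboxypeptidase (3.93%). No test was made, since the classes were set after their values had been seen.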
